A study of Homo sapiens with 6 samples.

Results

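The genes described here are the cyclins, kinases and inhibitors that act at the G1 gate of the cell cycle. They were chosen by gene symbol as 3 D-type cyclins (CCND1, CCND2 and CCND3), 2 kinases (CDK4 and CDK6), 3 inhibitors of the CIP/KIP family (CDKN1A, CDKN1B and CDKN1C) and 2 inhibitors of the INK4 family (CDKN2A and CDKN2B). These are 10 of the 62700 genes in the deposited tables. All 10 were found, and 7 had a mean of at least 1 TPM (a transcript level scaled for gene length and for the total of the library), which was the level required for a test. RNA-Seq of poly-A RNA covered 6 libraries of SK-Hep-1 cells, an established human line that the paper uses beside HepG2 and Huh7. The 3 control libraries are titled shControl, although their genotype label is WT, and the other 3 libraries are titled as knockdowns of the lncRNA RAB30-DT by shRNA. Knockdown lines were made by stable lentiviral transduction with pLKO.1 vectors and puromycin selection, so the groups are selected populations of a single cell line, where the control is as its title states. The study made more than a single RAB30-DT shRNA vector, and the labels do not say which of them each knockdown library carries, so the spread within that group may also hold differences between shRNAs. Nor do they say whether replicates came from separate cultures, so p-values measure the spread between libraries, which may be technical. In bulk libraries, a lower RNA level per cell and fewer cells that hold the RNA cannot be told apart.

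As background, D-type cyclins are the part of the G1 machinery that responds to growth signals. Each binds CDK4 or CDK6, and the active kinase phosphorylates RB1 and its relatives, which releases E2F factors and lets cyclin E with CDK2 and the genes of DNA synthesis follow. INK4 inhibitors bind CDK4 and CDK6 themselves, whereas CIP/KIP inhibitors bind cyclin-CDK complexes, block CDK2 and also help to assemble cyclin D with its kinases. CDKN1A encodes p21, which is known for halting cells in G1, and CDKN2A encodes p16INK4a and ARF in overlapping reading frames.

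RAB30-DT itself was at 18.16, 11.51 and 13.91 TPM in the control libraries and at 11.94, 10.85 and 6.5 TPM in the knockdown libraries. Its log2 fold change was −0.55 (SE 0.27, adjusted p = 0.355 from limma), and the groups overlapped, so the level of the targeted gene did not separate the libraries. The paper separately reports a qPCR check of RAB30-DT knockdown in SK-Hep-1 cells. The depth of the libraries is unknown, because TPM keep no read number. Between 20127 and 21675 genes were above 0 per library, and mitochondrially encoded genes held between 8.75% and 11.1% of TPM. Libraries differed in how gene levels moved with GC content. Across genes, Spearman's rho between a library's deviation from the mean and the GC content of the transcript was −0.607, 0.297 and 0.489 in the control libraries and −0.523, 0.022 and 0.33 in the knockdown libraries, in the order of their replicate numbers. The paper calls the line endothelial-derived. Of 9 endothelial markers only ROBO4 had a mean of at least 1 TPM, KDR and ERG were listed at 0, and the summed level was 2.59 to 9.27 TPM in control and 5.36 to 8.56 TPM in knockdown libraries. Of 10 hepatocyte markers only SERPINA1 reached that mean, 5 were listed at 0, and the sum was 19.75 to 25.07 TPM in control and 28.66 to 38.11 TPM in knockdown libraries. SERPINA1 made up most of that sum, at 18.11 to 23.96 TPM in control and 28.25 to 37.19 TPM in knockdown libraries. It did not pass the test (log2 fold change 0.59, adjusted p = 0.192 from limma). All 7 mesenchymal markers were tested and 0 passed (3 at an unadjusted p under 0.05 in limma), with sums of 5424.2 to 5639.09 TPM in control and 5723.94 to 6167.09 TPM in knockdown libraries. VIM made up most of each sum, at 3793.03 to 3997.41 TPM in control and 4335.79 to 4784.16 TPM in knockdown libraries. Only VIM was higher in every knockdown library than in any control library, while SPARC and THY1 were lower in every one. Such separation was common, with 9.89% of all genes tested higher and 13.4% lower without overlap. COL1A1 and S100A4 were at most 2.41 TPM in any library.

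Of the 7 G1 genes tested, only CDKN1A passed the test, and it rose. The change was computed on log2(TPM + 1) with limma and adjusted over all 14020 genes tested, of which 146 (1.04%) were called at an adjusted p under 0.05, 52 higher (0.371%) and 94 lower (0.67%). Of the 7, 4 had groups that did not overlap, CCND1 and CDKN1A with all knockdown libraries higher, and CCND3 and CDK4 with all of them lower. Over all genes tested, the groups did not overlap for 23.3%, with 9.89% higher and 13.4% lower. The median log2 fold change was 0.14 over the 7 members and −0.04 over all genes tested. Of all 14020 genes tested, 7531 had values below 0, and 2350 had an unadjusted p under 0.05 in limma.

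**Figure D1:**
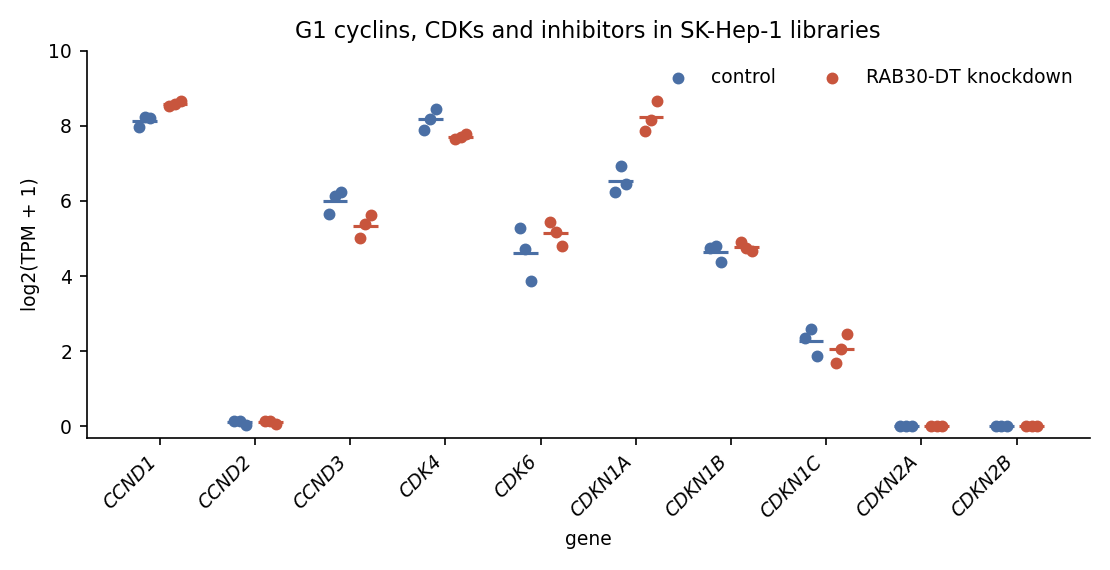
Level of each of the 10 genes as log2(TPM + 1), with a point for each of 3 control libraries (blue) and 3 RAB30-DT knockdown libraries (red) and a bar at the group mean. CDKN1A shows the widest gap between the groups, CCND1, CCND3 and CDK4 show smaller gaps, and CCND2, CDKN2A and CDKN2B lie at or near 0.

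**Figure D2:**
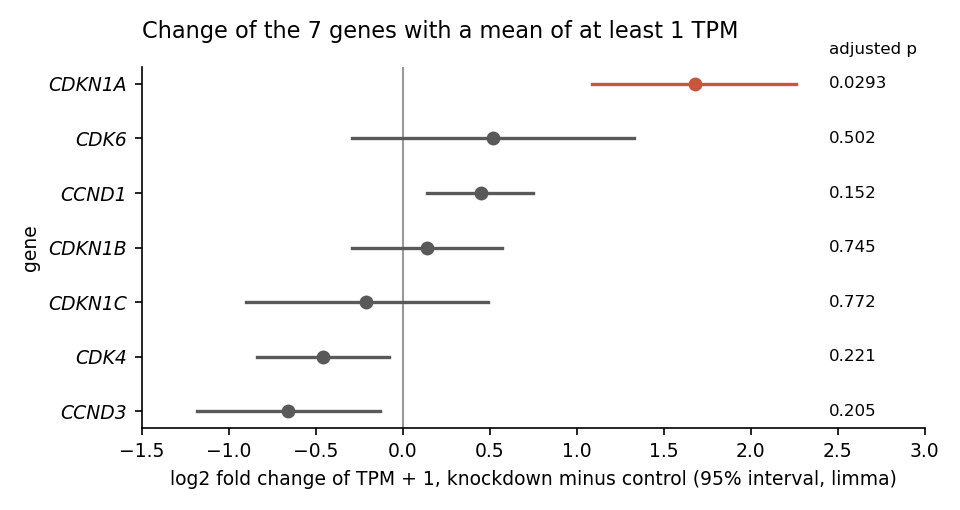
Log2 fold change of the 7 tested genes, knockdown minus control on the TPM + 1 scale, with the 95% interval from limma and the adjusted p at the right. Only the interval of CDKN1A (red) belongs to a gene past the threshold, with a log2 fold change of 1.68.

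CDKN1A, the gene of p21, was at 73.92, 122.13 and 87.28 TPM in the control libraries and at 232.09, 282.8 and 402.34 TPM in the knockdown libraries. The lowest knockdown value was well above the highest control value. The mean went from 94.4 ± 24.9 TPM to 306 ± 87.4 TPM (SD, n = 3 each). The log2 fold change was 1.68 (SE 0.25, limma adjusted p = 0.0293), a 3.2-fold rise with a 95% interval of 2.14 to 4.79. An exact 2-sided permutation test of the TPM gave p = 0.1, the smallest that 3 against 3 libraries allow. The call was held by 12 of 19 alternatives, and the log2 fold change stayed between 1.35 and 1.88. Of the libraries left out in turn, the call held only without control replicate 1. The adjusted p was 0.0784 without control replicate 2, 0.0585 without control replicate 3, and 0.0816, 0.153 and 0.131 without knockdown replicates 1, 2 and 3, with log2 fold changes of 1.88, 1.64, 1.86, 1.72 and 1.46. Without the filter on low values the adjusted p was 0.111, and with eBayes without trend it was 0.0548.

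CDKN1A lies on the plus strand of chromosome 6 at chr6:36676460-36687337 (hg38). DINOL, a lncRNA on the opposite strand within CDKN1A, had a mean of 0.123 TPM, and whether the counting used strand is not given in the sources used here.

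The other CIP/KIP inhibitors did not pass the test. CDKN1B encodes p27, which holds CDK2 inactive in resting cells and is removed by the SKP2 ubiquitin ligase. It was at 25.69, 26.65 and 19.84 TPM in control and at 29.11, 26.11 and 24.21 TPM in knockdown libraries, with a log2 fold change of 0.14 (95% interval −0.29 to 0.57, adjusted p = 0.745 from limma). CDKN1C encodes p57, an imprinted inhibitor expressed mainly from the maternal copy. Its level was low, at 4.12, 5.06 and 2.64 TPM in control and at 2.2, 3.18 and 4.49 TPM in knockdown libraries, with a log2 fold change of −0.21 (95% interval −0.90 to 0.49, adjusted p = 0.772 from limma). In both genes the groups overlapped, and the intervals still hold changes of either sign.

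Since TPM are scaled for length, the members of a family can be set side by side within a library. CDKN1A held 71.3%, 79.4% and 79.5% of the summed CIP/KIP TPM in the control libraries and 88.1%, 90.6% and 93.3% in the knockdown libraries. The summed level of the 3 inhibitors was 122 ± 27.4 TPM in control and 336 ± 86.2 TPM in knockdown libraries (SD, n = 3 each). Set against the summed level of CDK4 and CDK6, the CIP/KIP sum was 0.38, 0.49 and 0.3 in control and 1.09, 1.28 and 1.75 in knockdown libraries. CIP/KIP transcripts were thus fewer than those of the 2 kinases in each control library and more in each knockdown library. These shares and ratios are descriptions of mRNA with no test, and protein levels were not measured.

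**Figure D3:**
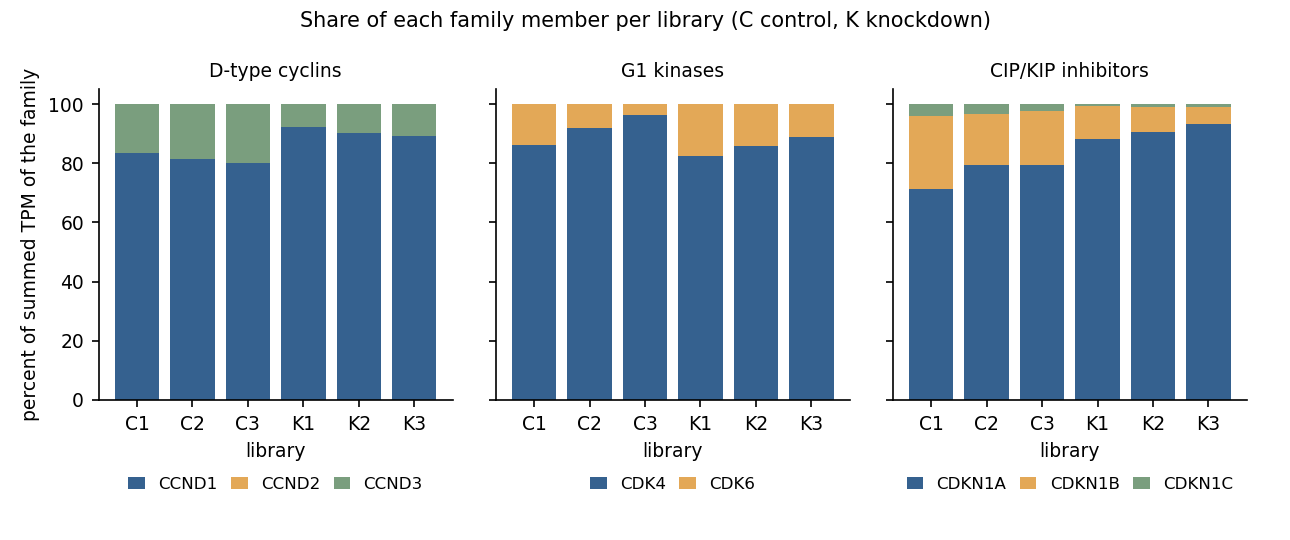
Percent of the summed TPM of each family held by each member in 3 control (C1 to C3) and 3 knockdown (K1 to K3) libraries, as stacked bars that start at 0. CCND1 and CDKN1A hold larger shares in every knockdown library than in any control library, and the CDK4 shares of the groups overlap.

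Among the D-type cyclins, CCND1 was by far the most abundant. It lies at chr11:69641156-69654474 on the plus strand and was at 250.88, 300.32 and 295.94 TPM in control and at 367.21, 379.54 and 406.06 TPM in knockdown libraries. All knockdown libraries lay above all control libraries, yet the log2 fold change of 0.45 (SE 0.13, 95% interval 0.14 to 0.75) did not pass the test (adjusted p = 0.152 from limma, exact permutation p = 0.1). It passed in 2 of 19 alternatives, with arrayWeights (0.37, adjusted p = 0.0189) and with the GC trend removed together with a replicate block (0.48, adjusted p = 0.0441).

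CCND3, the D-type cyclin best known from lymphocytes and expressed in many tissues, went the other way in its values. It lies on the minus strand at chr6:41934934-42050357 and was at 49.48, 68.68 and 73.87 TPM in control and at 31.38, 40.53 and 48.82 TPM in knockdown libraries. The groups were separate, but knockdown replicate 3 came within 1 TPM of control replicate 1. The log2 fold change was −0.66 (SE 0.23, 95% interval −1.18 to −0.13, adjusted p = 0.205 from limma). With the GC trend of each library removed, it was −0.55 and passed the test (adjusted p = 0.0355). CCND3 and CDKN1A were then the 2 members called, where 8.81% of all genes tested were called. With arrayWeights, which gave control replicate 2 and knockdown replicate 2 weights of 3 and 4.39 and all others below 1, 4 of 7 members were called (CCND1, CCND3, CDK4 and CDKN1A), where 23% of all genes tested were called.

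CCND2 was at most 0.11 TPM in any library and was not tested. The D-type cyclin pool was therefore made of CCND1 and CCND3. CCND1 held 83.5%, 81.4% and 80% of it in control and 92.1%, 90.3% and 89.3% in knockdown libraries. The summed level of the D-type cyclins was 346 ± 39.8 TPM in control and 425 ± 28.4 TPM in knockdown libraries (SD, n = 3 each). Relative to the summed CDK4 and CDK6, it was 1.09, 1.17 and 1.03 in control and 1.65, 1.72 and 1.85 in knockdown libraries.

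CDK4, the more abundant of the G1 kinases here, was at 237.49, 289.65 and 346.81 TPM in control and at 198.8, 208.68 and 219.04 TPM in knockdown libraries. The knockdown libraries lay close together and under all control libraries. The log2 fold change was −0.46 (SE 0.17, 95% interval −0.84 to −0.08, adjusted p = 0.221 from limma), and among 19 alternatives it passed only with arrayWeights (−0.47, adjusted p = 0.0122). CDK4 overlaps TSPAN31, at a mean of 30.7 TPM, and MARCHF9, at 16.2 TPM, both on the opposite strand.

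The RefSeq promoter of CDK4 (GRCh38.p14, 250 bases before to 50 after the start) holds 3 copies of the E-box CACGTG, the palindrome bound by MYC with MAX, and only 22 of 10092 tested genes with a promoter hold as many. They are shown on the minus strand, 5′ to 3′, with the E-boxes in capitals.
CDK4 E-boxes 1 and 2, chr12:57752501-57752526: CACGTGtgatagcaacagatCACGTG
CDK4 E-box 3, chr12:57752396-57752421: gggtggcggtCACGTGcccagaacgt

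Promoters were found for 7 of the 10 members, among them CDKN2A and CDKN2B, which were not tested. CDK4 and CDK6 were the 2 of 7 with an E-box, CDK6 not in every promoter listed for it. An E-box was found in 1285 of 10092 tested genes (12.7%) and in 2396 of all 27305 genes with a promoter (8.8%). An E2F motif (TTTCCCGC or TTTGGCGC, either strand) was found in 0 of 7 members and in 14 of 29 S-phase targets of E2F (48.3%). It was found in 474 of the 10092 tested genes (4.7%) and in 750 of all 27305 (2.7%). MYC, chosen after its values were seen, was at 153 ± 24.6 TPM in control and 145 ± 1.47 TPM in knockdown libraries (SD, n = 3 each), with a log2 fold change of −0.06 (limma adjusted p = 0.88).

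CDK6 shares substrates with CDK4 and was far less abundant. It was at 37.9, 25.15 and 13.53 TPM in control and at 42.35, 34.91 and 26.95 TPM in knockdown libraries, and the groups overlapped. The log2 fold change was 0.52 (SE 0.35, 95% interval −0.29 to 1.33, adjusted p = 0.502 from limma, exact permutation p = 0.4), and it passed in 0 of 19 alternatives, with a lowest adjusted p of 0.0802. Its transcript has the lowest GC content of the members, 39.7%, and within each group its level was highest in replicate 1, where gene levels fell with GC content. Removing the GC trend gave 0.50 (adjusted p = 0.139 from limma). CDK4 held 86.2%, 92% and 96.2% of the summed TPM of the 2 kinases in control and 82.4%, 85.7% and 89% in knockdown libraries. The summed level was 317 ± 42.5 TPM in control and 244 ± 2.42 TPM in knockdown libraries (SD, n = 3 each).

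CDK6 was also the only member whose 3′UTR in the canonical transcript held the 7-mer GAGTGAA, a motif taken from an earlier scan of these same values. The 3′UTR is 10219 bases long and holds 2 copies, at bases 2312 to 2318 and 2631 to 2637. They are shown with 10 bases on each side and the 7-mer in capitals.
CDK6 3′UTR, first copy: ttcatggctaGAGTGAAcatagcttta
CDK6 3′UTR, second copy: tgttgcatttGAGTGAAtactctcttg

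The 7-mer occurred in 1446 of 11537 tested protein-coding genes (12.5%). The 3′UTRs of the other members were between 477 and 5344 bases long and held 0 copies.

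CDKN2A and CDKN2B, which encode the inhibitors p16INK4a and p15INK4b, were listed at 0 in all 6 libraries. They lie next to each other on 9p21, at chr9:21967752-21995301 and chr9:22002903-22009305 on the minus strand, a region often deleted in tumours. A listed 0 is not rare over genes of all types, since 35319 of 62700 were at 0 in every library. The share among protein-coding genes alone is not given here. MTAP, their neighbour and an enzyme of methionine salvage that nearly all cells express, was listed at 0 as well, as were CDKN2B-AS1, CDKN2A-DT, DMRTA1 and IFNE. Of the list of 7 neighbours, 5 were at 0, and KLHL9 was the only one tested, at 9.97 ± 4.34 TPM in control and 11.9 ± 2.18 TPM in knockdown libraries (SD, n = 3 each, adjusted p = 0.659 from limma).

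Around this locus, only protein-coding genes and lncRNAs were read. The nearest of them to reach a mean of 1 TPM were KLHL9, at 10.9 TPM, and TUSC1, at 13.3 TPM. Their gene centres lay at −649.0 kb and 3696.2 kb from that of CDKN2A. Between them lie 32 genes of these types, and 31 were at 0 in every library. Among these 31 were 11 of 12 protein-coding genes. The exception was ELAVL2, a neuronal gene, with a mean of 0.073 TPM. This stretch includes interferon genes, which resting cells rarely express. DNA copy number was not measured, and a failed estimate, silence and loss of the genes cannot be told apart from these values.

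**Figure D4:**
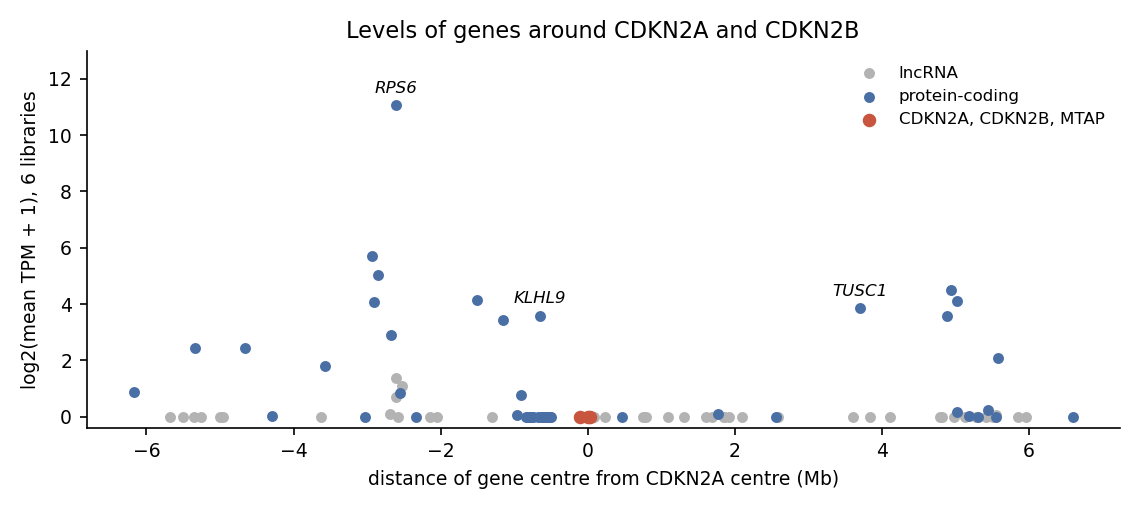
Mean level over 6 libraries, as log2(mean TPM + 1), of protein-coding genes (blue) and lncRNAs (grey) against the distance of the gene centre from that of CDKN2A in Mb. CDKN2A, CDKN2B and MTAP (red) lie at 0 between KLHL9 and TUSC1. No gene of these types in that stretch reached a mean of 1 TPM.

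The INK4 inhibitors outside 9p21 were expressed. CDKN2C, which encodes p18INK4c, was at 35.36, 44.11 and 50.96 TPM in control and at 26.04, 27.3 and 27.88 TPM in knockdown libraries, with a log2 fold change of −0.65 (SE 0.19, adjusted p = 0.142 from limma). CDKN2D, which encodes p19INK4d, was at 13.1 ± 3.98 TPM in control and 9.18 ± 3.06 TPM in knockdown libraries (SD, n = 3 each), and its groups overlapped (log2 fold change −0.48, adjusted p = 0.449 from limma). CDKN2C was thus the most abundant INK4 transcript in each library, and neither gene passed the test.

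For each tested member, the gene whose log2(TPM + 1) correlated best with it over the 6 libraries was looked up among the other 14019 tested genes. For CDKN1A this was HEXA, a lysosomal hexosaminidase subunit (Pearson's r = 0.9991), at 80.9, 95.84 and 85.88 TPM in control and 124.55, 130.69 and 148.23 TPM in knockdown libraries. For CCND1 the first 3 were UNC119B (0.9938), the ribosomal protein gene RPLP1 (0.9936) and IDUA (0.9933). The others were CENPX for CCND3 (0.9961), KCTD15 for CDK4 (0.9983), ENSG00000259865 for CDK6 (0.9993), METTL9 for CDKN1B (0.995) and LRFN3 for CDKN1C (0.9806). With 6 libraries such values are common, as 620 genes exceeded 0.95 with CDK6, 108 with CDKN1A and 12 with CDKN1C. The points share the difference between groups and the GC trends of the libraries, and the correlations carry no p.

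The genes that act with the members were read from lists written for the G1 gate. Of 7 genes of cyclin E, CDK2 and the CDK-activating kinase, 0 passed the test with limma (1 at an unadjusted p under 0.05), 5 had values below 0, and the median log2 fold change was −0.29. CDK2, the kinase that p21 and p27 inhibit, was at 93.33, 81.32 and 109.24 TPM in control and at 55.99, 63.46 and 45.49 TPM in knockdown libraries. Its groups did not overlap, and its log2 fold change of −0.78 (SE 0.19) did not pass (adjusted p = 0.102 from limma). CDK7, the catalytic subunit of the CDK-activating kinase, had the highest value of the list, 0.26 (adjusted p = 0.58).

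Of 10 genes for the turnover of D-type cyclins, 0 passed (2 at an unadjusted p under 0.05), 7 had values below 0 and the median was −0.22, from FBXW8 (0.18) to FBXO31 (−0.57, adjusted p = 0.252 from limma), both F-box proteins of ubiquitin ligases. All 7 genes for the turnover of CIP/KIP inhibitors had values below 0, with a median of −0.40, and 5 had groups that did not overlap (13.4% of all genes tested were lower without overlap), but 0 passed the test with limma (4 at an unadjusted p under 0.05). With median-of-ratios scaling, quantile normalization or arrayWeights, 6 of these 7 genes had values below 0. The same count was found without control replicate 1, without control replicate 2 and without knockdown replicate 1. They ranged from SKP1 (−0.04), the adaptor shared by SCF ligases, to DTL (−0.79, adjusted p = 0.152 from limma), the substrate receptor that directs p21 to destruction in S phase. Of 13 genes of pocket proteins, E2F and DP factors, 0 passed with limma (2 at an unadjusted p under 0.05), and the median was −0.08. E2F3 had the highest value, 0.30 (adjusted p = 0.55), and E2F1 the lowest, −1.34 (SE 0.38, adjusted p = 0.143 from limma). E2F1 was at 25.17, 40.08 and 78.59 TPM in control and at 12.55, 17.55 and 19.86 TPM in knockdown libraries.

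The S-phase targets of E2F, which lie downstream of the gate, were the list with the lowest median of those read here, −0.67. All 33 had values below 0, 26 with groups that did not overlap (13.4% of all genes tested were lower without overlap), and 4 passed the test (0.67% of all genes). These 4 fell, and all encode parts of the replicative helicase. MCM3 fell from 122 ± 10.6 to 56.9 ± 2.72 TPM (SD, n = 3 each, log2 fold change −1.09, adjusted p = 0.0252 from limma). MCM4, MCM6 and CDC45 fell too, with log2 fold changes of −0.98, −1.07 and −1.20 (adjusted p = 0.0291, 0.0417 and 0.047 from limma). CCNA2, the S-phase cyclin that pairs with CDK2, was nearest to 0, with −0.23 (adjusted p = 0.553). Leaving out control replicate 2 or any one knockdown library brought the 4 calls to 0, as did testing without the filter, whereas 9 were called without control replicate 1, where 489 of all 14006 genes tested were called. With the GC trend removed 23 were called (8.81% of all genes tested), and with arrayWeights 27 (23% of all genes tested), so calls over all genes rose in these settings as well. Median-of-ratios scaling left 2 calls and eBayes without trend 1. All 33 values were below 0 in each of these settings, and where 0 of the 33 were called with limma, between 22 and 27 had an unadjusted p under 0.05. Over all genes tested, 2350 of 14020 had such a p in the values reported.

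Output genes of the ERK pathway, which drives CCND1 transcription in many cells, had a median of 0.04, and 0 of 15 passed with limma (1 at an unadjusted p under 0.05). DUSP4 had the highest value, 0.71 (adjusted p = 0.171 from limma). EGR1 had the lowest, and it was at 207.93 TPM in control replicate 3 and between 14.47 and 17.17 TPM in the other libraries. DUSP6, chosen after its values were seen, was at 168.06 TPM in control replicate 3 and between 33.82 and 39.38 TPM elsewhere. CCND1 in that library, 295.94 TPM, lay between the other control libraries. Whether CCND1 levels followed ERK output in these cells was not tested.

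**Figure D5:**
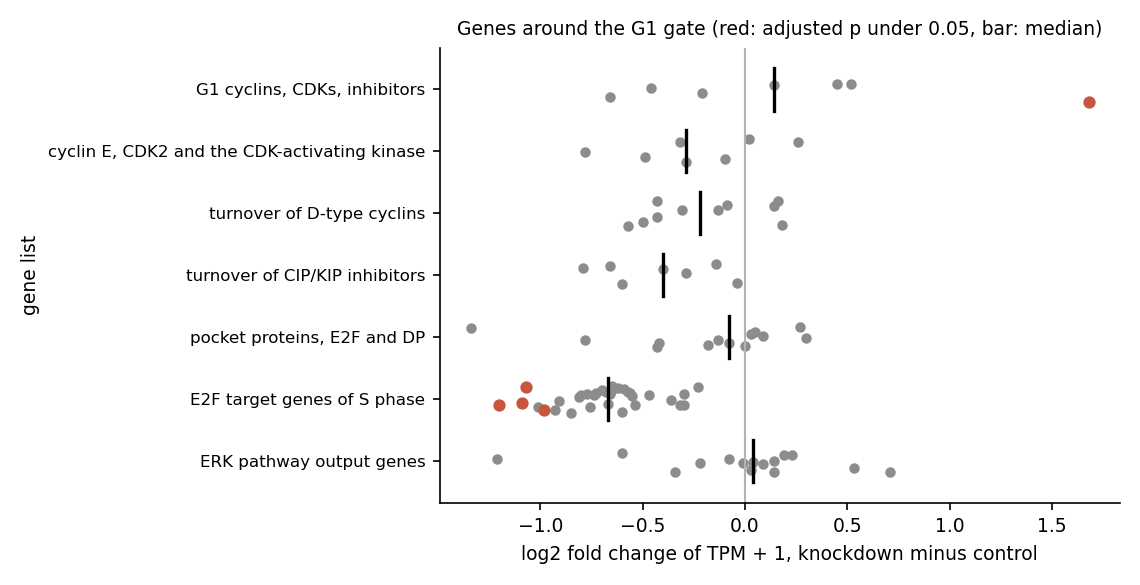
Log2 fold change of TPM + 1, knockdown minus control, for each tested gene of 7 lists, with genes past an adjusted p under 0.05 in red and a bar at the median of each list. The S-phase targets of E2F all lie below 0, and the G1 genes lie on both sides with CDKN1A farthest out.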

How the data were processed

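RNA-Seq libraries of SK-Hep-1 cells, 3 control and 3 RAB30-DT knockdown, were grouped by their titles. The deposited values are TPM per gene, which the authors gave with 2 decimals. Their methods name fastp, STAR and RSEM, whereas the submitters' processing notes name fastp and HISAT2 2.0.5 with hg38. All 62700 versioned gene identifiers matched GENCODE Release 44, used here for names and positions. The paper's methods name a later GENCODE release. Reads per gene cannot be recovered from TPM, so depth is unknown and precision rests on 3 libraries per group.

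Log2(TPM + 1) of 14020 genes, those whose mean reached 1 TPM, was fitted in R 4.3.3 with limma 3.58.1 (lmFit, eBayes with trend, 2-sided), with Benjamini-Hochberg adjustment over all of them and calls at an adjusted p under 0.05. The fit was tested on simulated data. GC trends were removed per library by loess (span 0.3). Exact permutation tests used the TPM. Motifs were searched in canonical 3′UTRs and RefSeq promoters. Members and lists were chosen with earlier results of these data known. Of each list, the genes with the highest and lowest log2 fold change and up to 4 called genes are named. The 19 alternatives changed the pseudocount, filter, scaling, variance estimate, weights, replicate block, GC trend or libraries. A gene list and a motif search of the plan are not reported here.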

Additional observations from a re-analysis of the deposited data

How the results depend on the processing

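No tested member changed sign in any of the 19 alternatives that kept it (CDKN1C was not tested with a mean of at least 5 TPM), and CDKN1A was the only member called in the values reported. The number of genes called, 146 (52 higher and 94 lower), and of members called, 1, depended on the settings. Median-of-ratios scaling gave 70 higher and 66 lower, and quantile normalization 78 and 83. Without a filter, 13 genes were called (4 higher, 9 lower) and 0 members, and eBayes without trend called 57 lower and 0 members, although limma's unadjusted p was under 0.05 for 4 and 3 members. With arrayWeights, 3218 genes (1287 higher, 1931 lower) and 4 members were called, and with the GC trend removed 1235 (601 higher, 634 lower) and 2 members. With each library left out in turn, 12 to 489 genes were called, 6 to 182 higher and 6 to 307 lower, and 0 to 1 members, with 2 to 5 members at an unadjusted p under 0.05.

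Whether replicate numbers pair the libraries is not settled by these values. Deviations of same-numbered libraries correlated at 0.41, 0.0359 and 0.279, where the highest value with another number was −0.0866, 0.111 and 0.0614. Replicates 1 and 3 thus correlated best with their own number, and replicate 2 did not. A replicate block called 861 genes (311 higher, 550 lower) and 2 members, CDKN1A and CCND3, and 20 of the 33 S-phase targets in place of 4, and the block with the GC trend removed called 1039 (469 higher, 570 lower) and 3 members. Quantile normalization gave medians of −0.11 for D-type cyclin turnover, −0.20 for CIP/KIP turnover and −0.57 for the S-phase targets. The causes were not tested. Depth is unknown, so levels near 0, such as those of CCND2, could not be bounded.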

Other observations

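Near CDKN1C on 11p15, 5 of 8 neighbouring genes had a mean of at least 1 TPM, 0 of them passed the test with limma (2 at an unadjusted p under 0.05), and their median log2 fold change was −0.18. SLC22A18, an organic cation transporter gene that is imprinted like CDKN1C, was at 4.75, 8.68 and 2.4 TPM in control and at 11.99, 12.32 and 11.31 TPM in knockdown libraries, a log2 fold change of 1.16 (SE 0.36, adjusted p = 0.16). The groups did not overlap, whereas those of CDKN1C did. NAP1L4, a histone chaperone gene, had the lowest value, −0.48 (adjusted p = 0.224), at 89.8 ± 14.4 TPM in control and 63.8 ± 5.85 TPM in knockdown libraries (SD, n = 3 each). Among the mesenchymal markers, FN1 had the highest value, 0.30 (adjusted p = 0.538 from limma), and THY1 the lowest, −0.54 (adjusted p = 0.226).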
